A study of Mus musculus with 2 samples.

Results

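The 31 genes described here encode the enzymes and carriers by which a cell takes up glucose, splits it to lactate, makes bisphosphoglycerate and runs the pentose phosphate pathway. They were chosen by name: 3 carriers, 20 glycolytic enzymes, bisphosphoglycerate mutase and 7 pentose phosphate enzymes. All 31 were found among the 43346 Ensembl genes of each gene table, of which 21461 are nuclear protein-coding. RNA came from erythroid progenitors labelled CFU-Ery, the committed precursors whose daughters become erythroblasts and red cells. They were primary cells of adult male C57BL/6J mice, 5 to 6 weeks old, with no genotype or treatment beyond the strain given, and a linked protocol concerns progenitor isolation from bone marrow. There was 1 group of 2 libraries (replicates 1 and 2) from 1 ng of total RNA each; another linked protocol is titled for pools of 100 cells. Both carry the same donor record, so separate animals are not stated and the spread between them may be technical.

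Glycolysis is the only route to ATP in a mature red cell, which has no mitochondria. The Rapoport-Luebering bypass turns part of the flow into bisphosphoglycerate, the metabolite that loosens the grip of haemoglobin on oxygen. The pentose phosphate pathway supplies NADPH, which keeps glutathione reduced, and ribose phosphate for nucleotides. Several steps have more than 1 gene, and inherited loss of the erythroid forms of pyruvate kinase or hexokinase causes haemolytic anaemia.

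The total expected count (reads estimated per gene, not always whole) was 143491647 in replicate 1 and 110634458 in replicate 2, but nuclear protein-coding genes held only 3.29% and 3.70% of it, or 4717790 and 4093202 counts. The 31 genes together had 14861 and 12639 counts. Levels are given as deposited TPM, which is per length and scaled over all entries including mitochondrial rRNA. Rescaling to nuclear protein-coding genes alone multiplies a level by 43.1 in replicate 1 and by 37.0 in replicate 2. All 12 erythroid markers reached 1 TPM in both libraries (summed 4572 and 5524 TPM), and Slc4a1, the anion exchanger of the red cell membrane, stood at 124 and 149 TPM. Of 12 granulocyte and monocyte markers 10 did so too (summed 551 and 747 TPM), as did 6 of 8 macrophage (13.02 and 16.49 TPM), 3 of 5 B lymphoid (15.5 and 17.7 TPM) and 1 of 4 T and NK markers (2.40 and 2.48 TPM; Cd8a at 0). None of 5 megakaryocyte markers (2.08 and 2.64 TPM) and none of 5 stem and multipotent markers did (0.80 and 0.54 TPM), with Kit, a receptor of immature progenitors, at 0.43 and 0.36 TPM. The part of these other cells in the levels below was not tested. In such bulk RNA, fewer cells of a type and less RNA per cell cannot be told apart.

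The design holds no second group, so the levels, the choice between copies of an enzyme and the match of the libraries are described. An exact sign-flip test over 2 libraries cannot go below p = 0.5, so values are mean ± SD with n = 2. Counting intervals are 95% exact ones that treat reads as independent, and they cover counting error only. PCR copies are not independent molecules, so the intervals may be too narrow even for that.

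Of the 31 genes, 14 (45.2%) reached 1 TPM in both libraries, beside 12.6% of all nuclear protein-coding genes (2701 of 21461). On the rescaled scale 28 reached 1 TPM, beside 44.6%. Their median level was 1.09 TPM in replicate 1 and 0.87 TPM in replicate 2 (0.98 ± 0.156, or 39.6 ± 10.5 rescaled), while the median nuclear protein-coding gene stood at 0.01 and 0.02 TPM (0.586 ± 0.218 rescaled). They summed to 56.2 and 63.7 TPM, or 0.239% ± 0.00476 of nuclear protein-coding TPM. Gapdh alone carried 29.2% and 32.7% of that sum, and Slc16a1 another 15.4% and 14.5%. The 20 glycolytic enzymes had a median of 0.52 ± 0.0778 TPM, with 8 at 1 TPM in both libraries. The 7 pentose phosphate enzymes had a median of 1.425 ± 0.0212 TPM, with 4 at 1 TPM. The lower glycolytic median includes the many minor copies of its enzymes.

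**Figure D1:**
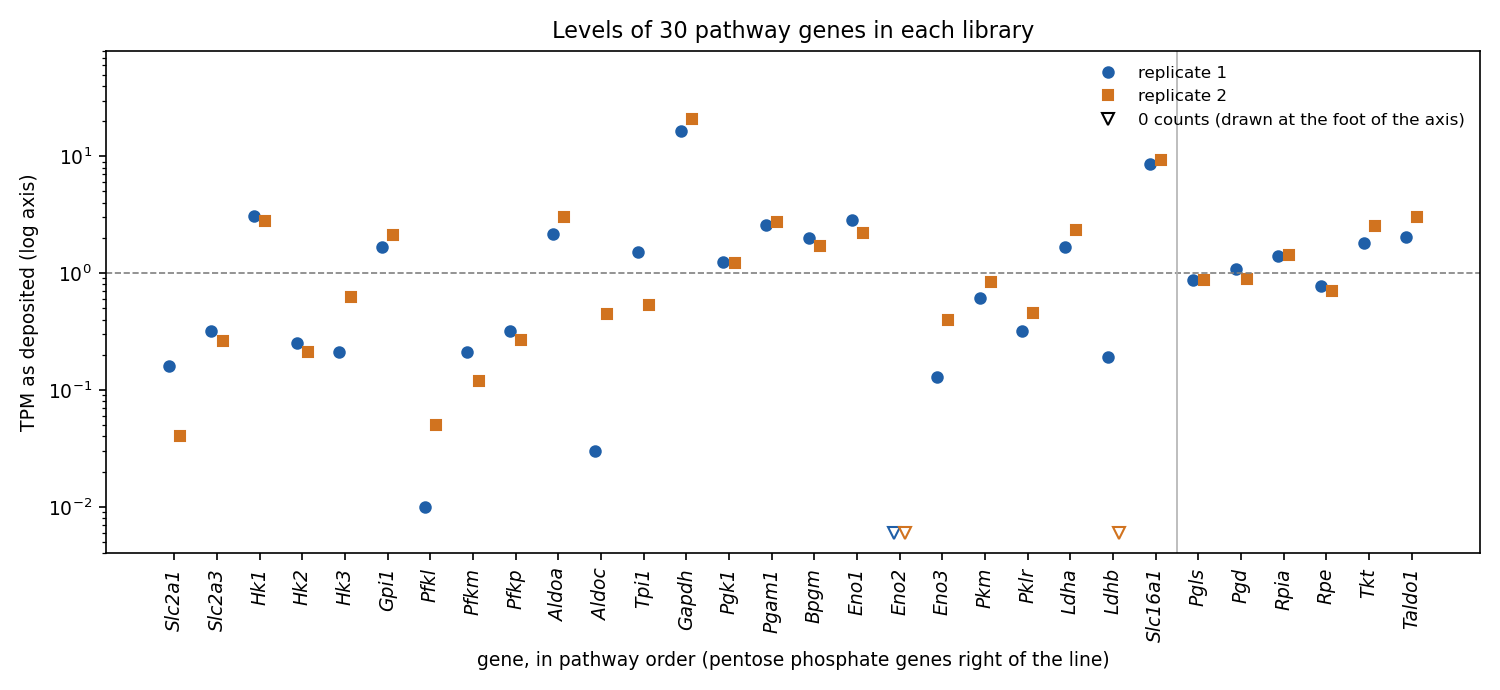
Deposited TPM (log axis) of 30 of the genes in pathway order, 1 point per library; open triangles are genes with 0 counts and the dashed line is 1 TPM. Gapdh (16.4 and 20.8 TPM) and Slc16a1 (8.67 and 9.26 TPM) stand above all the others, and the 6 pentose phosphate genes drawn lie between 0.71 and 3.01 TPM.

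Glucose entry rested on low counts for both listed carriers. Slc2a1, which encodes GLUT1, the main glucose carrier of many cells and of human red cells, had 53 counts (0.16 TPM) in replicate 1 and 4 counts (0.04 TPM) in replicate 2. Slc2a3, the high-affinity carrier GLUT3, had 176 and 114 counts (0.32 and 0.26 TPM). It exceeded Slc2a1 in both libraries, by 1.98-fold and 7.02-fold, and both counting intervals of the log2 ratio lay below 0 (-1.46 to -0.54 and -4.71 to -1.42). Both carriers summed to 0.39 ± 0.127 TPM.

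Of the glucose and sugar carriers looked up, the one with the most RNA was not among those 2. Slc2a4, which encodes GLUT4, the insulin-regulated carrier known from muscle and fat, had 750 and 724 counts (2.26 and 2.85 TPM, mean 2.56 ± 0.417). On protein-coding transcripts alone it stood at 1.60 and 2.27 TPM. It was the 1 gene of 8 other sugar carriers to reach 1 TPM, and 3 of the 8 (Slc2a2, Slc2a5, Slc2a10) had 0 counts in both libraries. Its counts were whole numbers in both libraries, and no exon of another gene in the tables overlaps it.

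Lactate leaves the cell through monocarboxylate carriers. Slc16a1 (ENSMUSG00000032902.1, chromosome 3, 104638668 to 104658462, GRCm38), which encodes MCT1, had 4920 and 4102 counts, the most of all 31 genes. Its levels of 8.67 and 9.26 TPM (8.97 ± 0.417, or 358 ± 22.2 rescaled) placed it 335th and 349th among nuclear protein-coding genes. The other carriers were far lower: Slc16a3 (MCT4) stood at 0.14 and 0.12 TPM and Slc16a7 (MCT2) at 0.06 and 0.07 TPM. Of the chaperones that bring these carriers to the surface, Bsg (basigin) stood at 45.2 and 64.4 TPM and Emb (embigin) at 1.32 and 1.27 TPM.

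**Figure D2:**
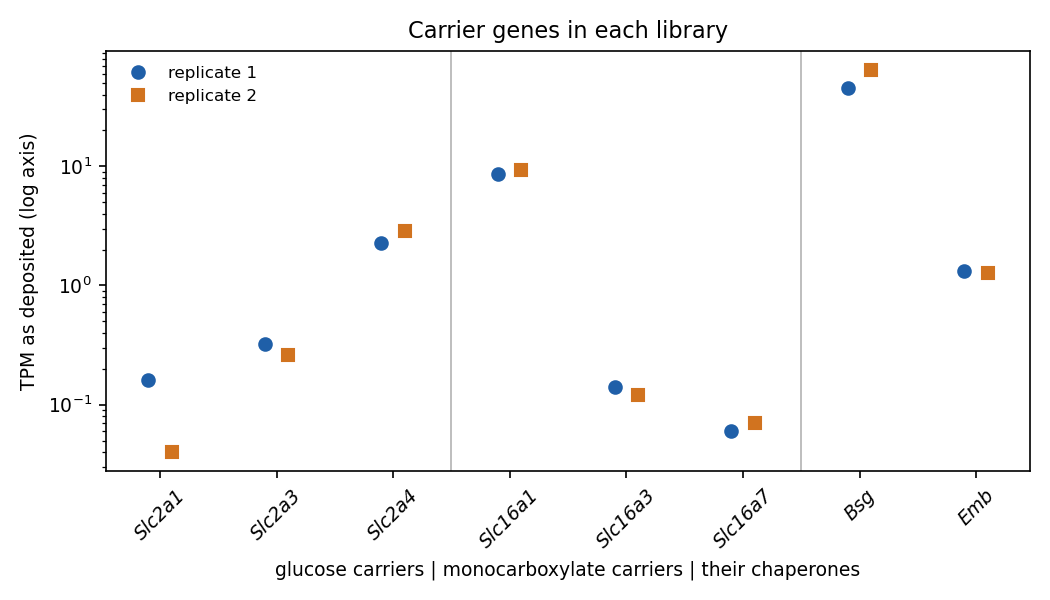
Deposited TPM (log axis) of 3 glucose carriers, 3 monocarboxylate carriers and 2 chaperones, 1 point per library. Slc2a4 lies above Slc2a1 and Slc2a3 in both libraries, and Slc16a1 lies above Slc16a3 and Slc16a7.

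Hexokinase, which traps glucose by phosphorylation, had 3.60 ± 0.0566 TPM over its 3 genes, the most of the glycolytic enzyme steps after GAPDH. That rank holds over all transcripts; on protein-coding ones it had 2.73 and 2.56 TPM, and aldolase (3.04 TPM) and Pgam1 (2.73 TPM) stood above it in replicate 2. Hk1 (ENSMUSG00000037012.14, chromosome 10, 62268855 to 62379908, minus strand), the red cell hexokinase, carried most of it with 1334 and 1053 counts (3.10 and 2.81 TPM). Hk2, the form of muscle and of many growing cells, had 30 and 43 counts (0.25 and 0.21 TPM). The libraries gave nearly the same log2 ratio of Hk1 to Hk2, 3.62 (interval 3.10 to 4.19) and 3.74 (3.30 to 4.21). Only 8.0% and 33.3% of Hk2 TPM lay on protein-coding transcripts, and with those alone the ratio was 5.91 ± 1.505. Hk3, a form known from granulocytes and monocytes, was at 0.21 TPM in replicate 1 and 0.62 TPM in replicate 2 (74 and 147 counts). Hk1 exceeded it 14.7-fold and 4.54-fold, and the intervals of these log2 ratios (3.54 to 4.23 and 1.93 to 2.44) did not overlap. The summed granulocyte and monocyte markers, 551 and 747 TPM, were also higher in replicate 2, as was the erythroid sum (4572 and 5524 TPM). These are deposited TPM. Rescaling multiplies replicate 1 by 43.1 and replicate 2 by 37.0, which narrows differences in which replicate 2 is higher. Single markers differed in direction, with S100a9 at 173 and 250 TPM and Mpo at 27.3 and 26.2 TPM, and their part in the Hk3 level was not tested.

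Hk1 has several annotated first exons, and an erythroid one is part of what is known of the gene. The transcript Hk1-202, which starts at base 62340542, held 76.6% and 67.5% of Hk1 counts. In TPM it held 60.1% and 59.1% (59.6% ± 0.714). The transcripts that start at the group of Hk1-205, Hk1-214 and Hk1-215, where Hk1-214 begins 2166 bases upstream of Hk1-202, held 30.1% and 29.2%. Most of that was Hk1-214, annotated as a retained intron, with 217 and 224 counts (19.6% and 28.6% of TPM). The group shares are close only because of Hk1-215, a 379-base transcript. It held 10.5% of TPM from 10.5 counts in replicate 1 and had 0 counts in replicate 2. Hk1-201, which starts further upstream at base 62358362, held 4.78% and 11.1%. The start shared by Hk1-203, Hk1-206, Hk1-207 and Hk1-216 had 0 counts in both libraries. The annotation does not say which of these starts is the erythroid one, and most of the gene's exons are common to Hk1-201 and Hk1-202, whose reads the authors' quantification had to divide between them.

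Phosphoglucose isomerase, which turns glucose phosphate into fructose phosphate, has 1 gene. Gpi1 stood at 1.66 and 2.10 TPM (1.88 ± 0.311; 423 and 415 counts).

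Phosphofructokinase, the committed and most regulated step, had the least RNA of all glycolytic enzyme steps in both libraries (0.54 and 0.44 TPM). Of its 3 genes, liver-type Pfkl had 5 and 17 counts (0.01 and 0.05 TPM), muscle-type Pfkm 74 and 34 counts (0.21 and 0.12 TPM) and platelet-type Pfkp 59 and 88 counts (0.32 and 0.27 TPM). Pfkl was below both others in both libraries, 19.8-fold and 2.68-fold below Pfkm and 30.8-fold and 5.82-fold below Pfkp. The intervals of all 4 log2 ratios, taken over all transcripts, lay below 0. Only 0.12 and 0.06 TPM of Pfkp lay on protein-coding transcripts, where Pfkm (0.21 and 0.12 TPM) was the highest of the 3. The order of Pfkp and Pfkm therefore depends on the transcripts counted. Pfkl stayed lowest, but on protein-coding transcripts in replicate 2 only barely (0.05 TPM beside 0.06 for Pfkp). Exons of Pfkp overlap Pitrm1 on the other strand (728 and 560 counts). Those of Pfkm overlap Senp1 on the other strand (711 and 400.0 counts) and, over 10.2% of their bases, Gm26513 on the same strand (42.4 and 24.0 counts). Strand use in the counting is not given in the sources used here.

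Aldolase, which splits the bisphosphate sugar, came mostly from Aldoa, the form of muscle and red cells. Aldoa had 379 and 415 counts (2.15 and 3.03 TPM, mean 2.59 ± 0.622), and 36.6% of the 25-base words of its main coding transcript occur in other genes. Aldoc, the brain form, had 11 and 25 counts. In TPM it rested at 0.03 in replicate 1 and 0.45 in replicate 2, a gap far wider than that of its counts. The 11 counts lay on Aldoc-201 (2786 bases), and the 25 counts on 2 short noncoding transcripts, Aldoc-205 (601 bases) and Aldoc-206 (706 bases). Aldoa was 68.5-fold and 6.74-fold higher.

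Triose phosphate isomerase, which interconverts the trioses made by aldolase, was the enzyme step with the widest spread against its mean (1.02 ± 0.693 TPM). Tpi1 (chromosome 6, 124810586 to 124814296) had 294 counts (1.51 TPM) in replicate 1 and 81 counts (0.53 TPM) in replicate 2. All of these counts lay on 1 coding transcript, Tpi1-205, and 4.42% of its 25-base words occur in another gene.

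Gapdh (ENSMUSG00000057666.14, chromosome 6, 125161715 to 125166467), which encodes the enzyme that couples triose oxidation to NADH, had the highest level of the 31. It stood at 16.4 TPM (interval 15.7 to 17.2) and 20.8 TPM (19.9 to 21.8), ranked 161st and 143rd among nuclear protein-coding genes, or 740 ± 44.4 TPM rescaled. These values are uncertain on 2 counts. Of the 25-base words of its main coding transcript, 92.6% occur in other genes, among them 326 pseudogenes with 466 and 599 counts (3.91 and 6.08 TPM), so reads could be divided among them. And 31.8% and 43.5% of its TPM lay on Gapdh-206, a 565-base retained-intron transcript, leaving 11.2 and 11.7 TPM on protein-coding transcripts. Those coding values were still the highest of the 31 genes.

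Pgk1, on chromosome X, makes the first ATP of glycolysis. It stood at 1.25 and 1.23 TPM (279 and 215 counts), and 68.4% of the words of its main coding transcript occur in other genes.

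At the next branch, Pgam1, the mutase of the main pathway, stood at 2.57 and 2.73 TPM (575 and 478 counts). Bpgm (ENSMUSG00000038871.5, chromosome 6, 34476207 to 34505613), the erythroid enzyme that makes bisphosphoglycerate, stood at 1.99 and 1.71 TPM (522 and 355 counts; mean 1.85 ± 0.198). The Pgam1 RNA was thus 1.29-fold and 1.60-fold that of Bpgm, log2 0.36 (interval 0.19 to 0.54) and 0.68 (0.48 to 0.88). Both intervals lay above 0. The main coding transcript of Bpgm shares no 25-base word with another gene, whereas 42.3% of the words of the Pgam1 one occur elsewhere. The retained-intron transcript Bpgm-202 held 29.1% and 19.9% of Bpgm TPM, and on protein-coding transcripts alone the log2 ratio was 0.93 ± 0.091. Minpp1, a phosphatase that can also act on bisphosphoglycerate, stood at 1.32 and 1.87 TPM.

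Enolase came from Eno1, the form found in most tissues, with 445 and 273 counts (2.87 and 2.22 TPM). The nerve form Eno2 had 0 counts in both libraries, and 3 counts would be 0.0220 and 0.0282 TPM. Against that floor Eno1 was at least 131-fold and 78.7-fold higher. The muscle form Eno3 had 18 and 45 counts (0.13 and 0.40 TPM), and Eno1 exceeded it 21.8-fold and 5.49-fold. Protein-coding transcripts held 48.4% and 53.2% of Eno1 TPM, and 78.8% of the words of its main coding transcript occur in other genes.

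Pyruvate kinase, which makes the second ATP, has 2 genes. Pkm (chromosome 9, 59656368 to 59679375) had 185 and 199 counts (0.61 and 0.84 TPM). Pklr (ENSMUSG00000041237.8, chromosome 3, 89136142 to 89146784), whose R form is the enzyme of the mature red cell, had 118 and 68 counts (0.32 and 0.46 TPM). The ratio was alike in both libraries, with Pkm 1.90-fold and 1.85-fold higher, log2 0.92 (interval 0.58 to 1.26) and 0.88 (0.48 to 1.30). In replicate 2, however, 0.24 TPM of the Pklr level came from 5 counts on Pklr-205, a 345-base noncoding transcript. On protein-coding transcripts alone Pklr stood at 0.32 and 0.22 TPM, and the log2 ratio was 1.43 ± 0.709.

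**Figure D3:**
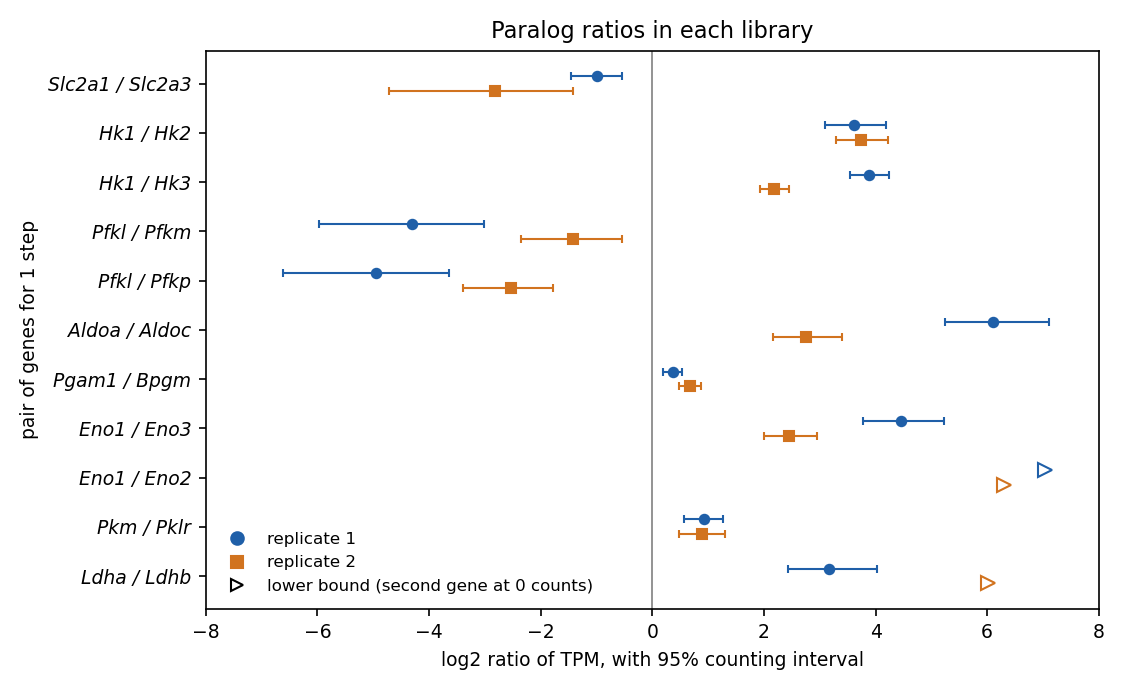
Log2 ratio of deposited TPM for 11 pairs of genes that share or neighbour a step, in each library; bars are 95% counting intervals and open triangles lower bounds. The first gene is higher in both libraries in 8 of the 11 pairs and lower in the pairs of Slc2a1 and Pfkl.

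Pkm transcripts carry 1 of 2 mutually exclusive exons that set the M1 or the M2 enzyme. M1 is always active, and M2, the form of many dividing cells, is switched by metabolites. Both exons are 167 bases long and 61.7% identical, and they are shown because they are what sets the M1 and M2 enzymes apart. They lie on the plus strand of GRCm38, the M1 exon at chr9:59675029-59675195 and the M2 exon at chr9:59675568-59675734. Sequences are from the GENCODE M21 transcripts, 5′ to 3′, with the 64 positions that differ in capitals.
M1 exon (Pkm-202): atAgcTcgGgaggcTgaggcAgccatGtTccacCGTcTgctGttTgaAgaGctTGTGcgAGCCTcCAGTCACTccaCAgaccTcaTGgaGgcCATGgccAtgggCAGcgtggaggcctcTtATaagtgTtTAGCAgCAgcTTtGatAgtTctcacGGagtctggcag
M2 exon (Pkm-201): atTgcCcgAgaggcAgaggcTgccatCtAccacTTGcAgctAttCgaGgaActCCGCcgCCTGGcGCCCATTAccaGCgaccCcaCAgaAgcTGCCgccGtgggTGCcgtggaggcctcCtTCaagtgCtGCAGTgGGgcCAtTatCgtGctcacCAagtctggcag
The M2 transcript Pkm-201 held 66.7% of Pkm TPM in replicate 1 and all of it in replicate 2 (123 and 199 counts). The M1 transcript Pkm-202 held 61.7 counts in replicate 1 and 0 in replicate 2. Both transcripts are 2432 bases long in the tables. The M2 form was the larger in both libraries, but its share differed by 33.3 percentage points, and the number of reads that crossed these exons is not in the tables used here.

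Pklr has 2 annotated starts, 430 bases apart, which give the R form of red cells (upstream) and the L form of liver (downstream). The sequences before both starts are shown because the transcript counts are set against them. They are from the RefSeq promoter table for GRCm38.p6, plus strand, 5′ to 3′: 250 bases at chr3:89135892-89136141 before the upstream start, and 199 bases at chr3:89136373-89136571 before the downstream start of Pklr-202. Capitals mark a GATA motif (AGATAA and its forms with T in the first or G in the last place, on either strand).
Before the upstream start: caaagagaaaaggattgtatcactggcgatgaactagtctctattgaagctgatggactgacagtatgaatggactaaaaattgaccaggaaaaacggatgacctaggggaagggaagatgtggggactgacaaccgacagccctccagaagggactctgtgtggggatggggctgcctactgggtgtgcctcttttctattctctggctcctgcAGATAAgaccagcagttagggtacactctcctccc
Before the downstream start: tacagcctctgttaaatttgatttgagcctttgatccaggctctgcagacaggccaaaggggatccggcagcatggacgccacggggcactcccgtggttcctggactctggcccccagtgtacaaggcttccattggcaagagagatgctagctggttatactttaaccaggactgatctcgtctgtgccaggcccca
The upstream window holds 1 such motif, 35 bases before the start, and the downstream window none. Among all 32851 RefSeq windows of 250 bases before a start, 26.5% hold one. The upstream transcript Pklr-201 had 0 counts in both libraries, and the short Pklr-205, which also begins at the upstream start, had 0 and 5 counts, equal to 51.6% of Pklr TPM in replicate 2. Pklr-202 held 118 counts in replicate 1 and 62.8 in replicate 2. These counts do not settle which start was used: Pklr-202 also runs 190 bases beyond the end of Pklr-201, so the transcripts differ at both ends.

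**Figure D4:**
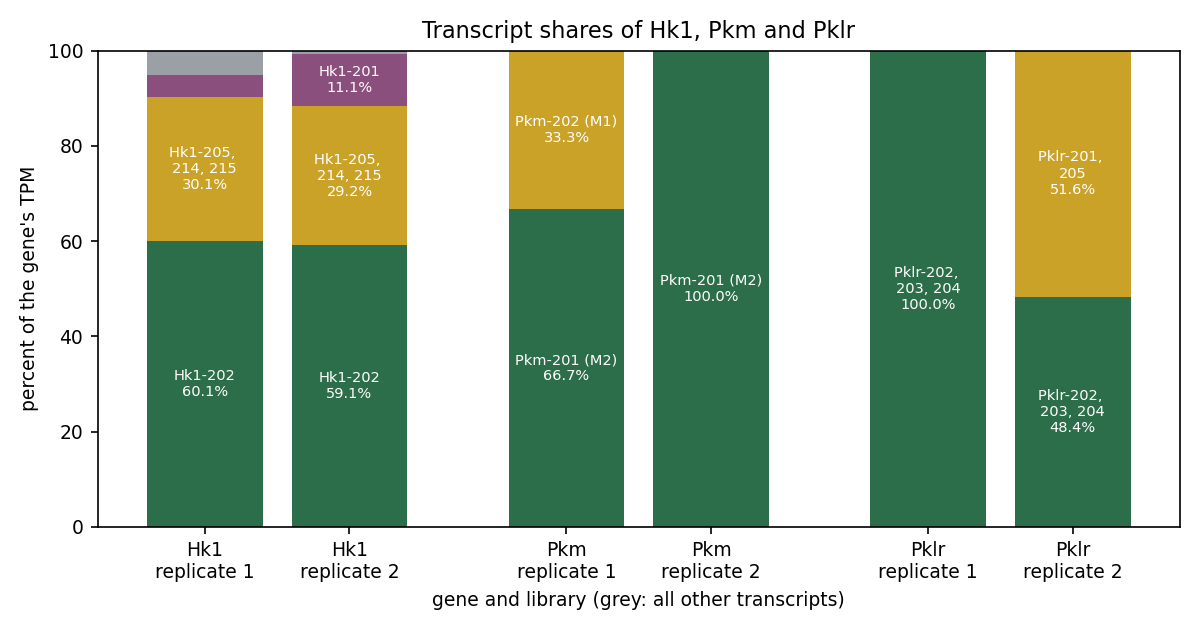
Percent of each gene's deposited TPM held by its transcripts, 1 bar per library, for Hk1 (grouped by start), Pkm (M1 or M2 exon) and Pklr (grouped by start). In TPM the Hk1-202 shares (60.1% and 59.1%) are close, whereas the shares of Pkm and Pklr differ widely between libraries. In counts the Hk1-202 shares were 76.6% and 67.5%, and those of Pklr-202 were 100% and 92.6%.

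Lactate dehydrogenase came from Ldha, the form suited to lactate production, with 325 and 347 counts (1.69 and 2.32 TPM, mean 2.01 ± 0.445). For Ldha, 39.6% of the words of the main coding transcript occur in other genes. Ldhb, the heart form, had 15 counts (0.19 TPM) in replicate 1 and 0 in replicate 2, where 3 counts would be 0.0357 TPM. Ldha was 8.98-fold higher in replicate 1 and at least 64.9-fold higher in replicate 2.

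The oxidative arm of the pentose phosphate pathway makes NADPH. Pgls, which opens the lactone ring, stood at 0.88 and 0.87 TPM (111 and 77 counts), and Pgd, an NADPH-forming dehydrogenase, at 1.09 and 0.89 TPM (304 and 202 counts). Their counting intervals overlapped in both libraries (0.727 to 1.06 for Pgls and 0.971 to 1.22 TPM for Pgd in replicate 1, and 0.687 to 1.09 and 0.770 to 1.02 TPM in replicate 2).

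The non-oxidative arm shuffles sugars between the pathways. The isomerase Rpia stood at 1.41 and 1.44 TPM and the epimerase Rpe at 0.78 and 0.71 TPM. Transketolase, Tkt, had the most counts of the 7 genes (734 and 800) and stood at 1.80 and 2.51 TPM. Transaldolase, Taldo1, was the highest per length at 2.03 and 3.01 TPM. Taldo1 was above Tkt in both libraries; their counting intervals overlapped in replicate 1 (1.67 to 1.93 TPM for Tkt, 1.80 to 2.28 for Taldo1) and just failed to in replicate 2 (2.338 to 2.689 and 2.694 to 3.361). The 7 genes spanned 0.745 ± 0.0495 to 2.52 TPM, a narrower range than the glycolytic enzymes. The main coding transcripts of 6 of them (Pgls, Pgd, Rpia, Rpe, Tkt and Taldo1) share no 25-base word with another gene. Over all annotated transcripts, however, 20.6% of the exonic bases of Pgls overlap Fam129c on the same strand (232 and 132 counts). For Rpe, 17.9% overlap Kansl1l on the opposite strand (336 and 155 counts).

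Other genes of these pathways were listed with earlier results of these data known; all 57 were matched, 11 reached 1 TPM in both libraries and 14 had 0 counts in both. Of 14 further isozymes, which serve liver, testis or other tissues, 8 were at 0 and only Adpgk, an ADP-dependent glucokinase, reached 1 TPM (1.69 and 1.64). Of 8 regulators of flux, 2 did: Minpp1 and Txnip, which restrains glucose uptake (3.34 and 2.50 TPM, of which 1.73 and 1.76 on protein-coding transcripts). The bifunctional enzymes that set the activator of phosphofructokinase were lower: Pfkfb2 stood at 0.91 and 0.88 TPM and Pfkfb1 at 0.80 and 0.55 TPM, but on protein-coding transcripts at 0.25 and 0.26 and at 0.37 and 0.44 TPM. Of 9 genes for pyruvate entry into mitochondria, 4 did: both subunits of the pyruvate carrier, Mpc1 (1.49 and 1.77 TPM) and Mpc2 (2.84 and 2.53 TPM), the dehydrogenase subunit Pdhb (1.29 and 1.49 TPM) and the inhibitory kinase Pdk3 (1.64 and 1.28 TPM). On protein-coding transcripts Mpc2 held only 0.53 and 0.58 TPM, and Pdk3 held 1.20 and 0.86 TPM. Of 10 gluconeogenesis and glycogen genes, Pck2, the mitochondrial carboxykinase, stood at 1.43 and 1.37 TPM. None of 3 glycerol phosphate dehydrogenases reached 1 TPM, the highest being Gpd1l at 0.29 and 0.24 TPM.

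The libraries were compared over the 9820 Ensembl genes whose expected counts averaged 20 or more, among them 27 of the 31; Pfkl, Aldoc, Eno2 and Ldhb fell below. On log2(TPM + 1), centred on the median of all these genes (a shift of -0.05), 0 of the 27 were over 2-fold apart, beside 0.631% of all. At these low levels the added 1 hides most differences. On log2(expected count + 1), median centred, 4 of the 27 (14.8%) were over 2-fold apart, beside 18.1% of all, and on log2(TPM + 0.1) the same 4, beside 10.3%. The members' share was near the background on either scale. Centred, 14 stood higher in replicate 1 and 13 in replicate 2.

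The 4 were Tpi1, Slc2a1, Hk3 and Eno3. In TPM, Tpi1 was 2.83-fold higher in replicate 1, log2 1.501 (counting interval 1.14 to 1.87). Slc2a1 was 4.35-fold higher there, log2 2.12 (0.68 to 4.05), but log2 3.52 in counts scaled to nuclear protein-coding depth. Its 4 counts in replicate 2 lay mostly (3.57) on Slc2a1-204, annotated for nonsense-mediated decay, and its coding TPM was 0.16 and 0.01. Hk3 was 2.92-fold higher in replicate 2, and Eno3 3.07-fold. All 4 intervals excluded 0, but the 4 were picked because they differed between these same libraries. The mean counts of Slc2a1, Eno3 and Hk3 were only 28.5, 31.5 and 110.5. The counting interval does not cover the spread between libraries. The 3 members with the most counts were closer: Slc16a1 differed 1.07-fold, Hk1 1.11-fold and Gapdh 1.27-fold. Tkt, the next by count (734 and 800), differed 1.39-fold, and Taldo1 (284 and 323 counts) 1.49-fold. The counting intervals of these genes, taken on deposited TPM, excluded 0 too. That scale is not centred over genes, and the direction of a small difference can depend on it. Slc16a1 was lower in replicate 1 as deposited (8.67 and 9.26 TPM) but higher there when rescaled (374 and 343 TPM).

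**Figure D5:**
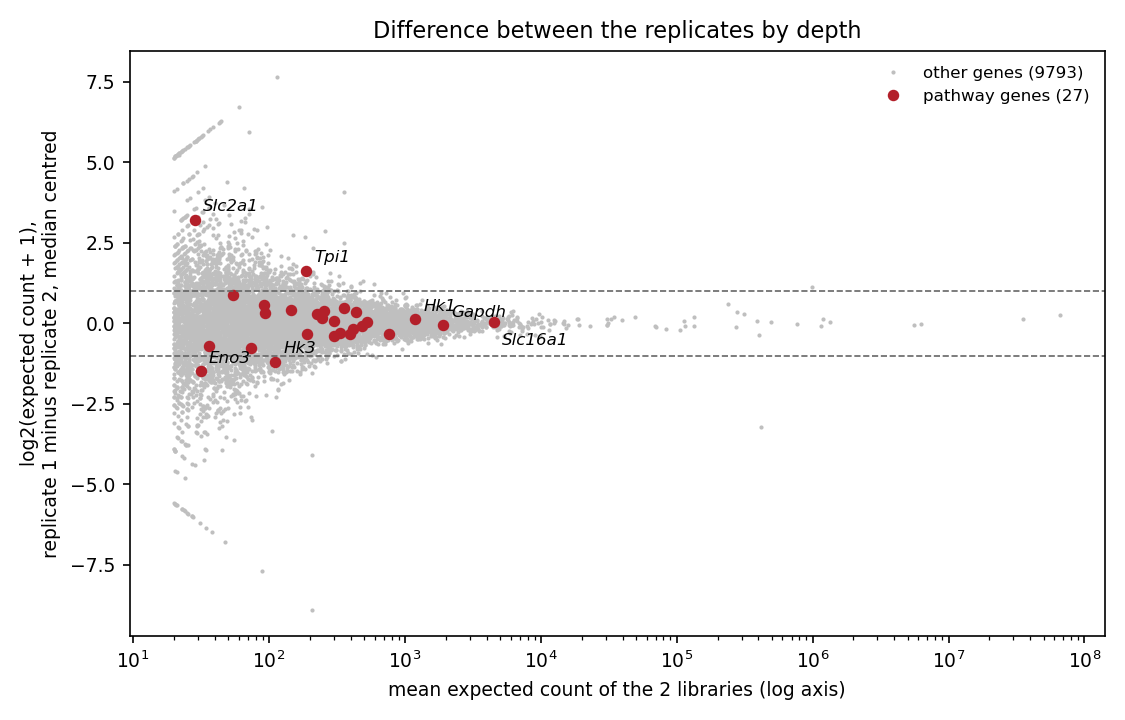
Difference between the libraries in log2(expected count + 1), median centred, against the mean expected count (log axis), for the 27 genes (red) and 9793 other genes (grey); dashed lines mark 2-fold. The members spread with falling count as the other genes do, and Slc2a1, Tpi1, Hk3 and Eno3 lie outside the lines.

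Reads that fit more than 1 gene limit some of these values. Of the 31 main coding transcripts, 10 share over 10% of their 25-base words with other genes, 3 of them (Gapdh, Eno1, Pgk1) more than 50%, and 8 share none. In each library 23 of the 31 genes had counts within 0.01 of a whole number. Exons of 12 of the 31 overlap a gene on the opposite strand, and those of 3 overlap a gene on the same strand. For 7 of the 31, an overlapped gene had a mean count of at least 20.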

How the data were processed

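The 2 total RNA libraries each have a gene table and a transcript table. Per the deposited descriptions, each was quantified alone, from transcriptome alignments to mm10 with the GENCODE M4 annotation. Aligner, quantifier, versions and strand setting: not given in the sources used here. Per the file headers, the deposited values are expected counts, TPM (also as a posterior mean), FPKM, the percent of a gene's TPM on each transcript, and a posterior standard deviation of the count, treated as a score. The deposited TPM covers all entries, spike-ins and mitochondrial RNA included, so a small shift in those moves every other gene.

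Names, transcript types and coordinates came from GENCODE M21 (GRCm38, the same assembly as mm10), promoters from RefSeq (GRCm38.p6; 43 windows of 30 genes, Slc2a3 unmatched). The members, lists and rules were chosen with earlier results of these data known. Of the 31 members, 1 is not reported here by name; of 57 other pathway genes, those at 1 TPM in both libraries and the highest of a group with none, and others were named after their values were seen. Ratio intervals are exact conditional binomial, at 95%. For a gene with 0 counts the floor was 3 counts in each library. Log values add 1 (or 0.1) to the value, which understates differences of low genes. Expected counts were rounded for edgeR TMM and DESeq2 scaling. Alternatives were another minimum, scale, pseudocount, scaling and leaving out each library; counting protein-coding transcripts alone, and median-centred counts, were added after seeing the data. Tools were edgeR 4.0.16 and DESeq2 1.42.0 in R 4.3.3, and scipy 1.17.1, pandas 2.3.3, numpy 2.4.6 and matplotlib 3.10.9 in Python 3.11.15.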

Additional observations from a re-analysis of the deposited data

How the results depend on the processing

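The number of the 31 genes at the minimum in both libraries went from 14 to 2 at 5 TPM and to 28 on rescaled TPM, and was 14 to 16 with a library left out. Their median of 0.98 TPM became 39.6 rescaled and 2.21 over members at 1 TPM alone (0.87 to 1.09 with a library left out). Their share of nuclear protein-coding TPM, 0.239%, was 0.312% of expected counts, 0.334% without adult globins and 0.255% on protein-coding transcripts alone, the last chosen after seeing the data (0.236% to 0.243% with a library left out). Members over 2-fold apart between the libraries went from 0 to 4 with a pseudocount of 0.1, with edgeR TMM, with DESeq2 size factors, on rescaled TPM and, added later, with median-centred counts. The Hk1-202 share of 59.6% was 72.1% of counts and 50.9% of posterior mean TPM (59.1% to 60.1% with a library left out). Of counts it was 76.6% in replicate 1 and 67.5% in replicate 2. With a library left out the Pklr-202 share of TPM was 48.4% to 100% and the Pkm-201 share 66.7% to 100%. Of counts, the Pklr-202 share was 100% and 92.6%. None of the 11 paralog ratios changed direction under the alternatives run, of which protein-coding transcripts alone gave a value for 8. With protein-coding transcripts alone, 9 of 31 levels and 4 of 8 ratios moved by more than the SD between libraries. No paired analysis was possible because the design has 1 group. Slc2a1, Hk2, Pfkl, Aldoc, Eno2, Eno3 and Ldhb had at most 53 counts in either library, which limits their values.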

Other observations

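Motifs were counted in the 250 bases before each RefSeq start, on both strands, as a description of letters and not of binding. The GATA motif (AGATAA and its forms with T in the first or G in the last place) lay in 9 of the 43 windows of these genes (20.9%), beside 26.5% of all 32851 windows. The CACCC-type motif CCNCACCC, of the kind read by erythroid Kruppel-like factor, lay in 8 (18.6%), beside 14.9%. The core ACGTG, of the kind read by hypoxia-inducible factors, lay in 12 (27.9%), beside 16.6%. Those windows belong to 10 of the 30 genes: Slc16a1, Slc2a1, Hk2, Hk3, Pfkm, Aldoa, Pgk1, Pgam1, Pkm and Ldha. Hif1a itself stood at 0.52 and 0.37 TPM. Windows of 1 gene can overlap and so are not independent.

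Protein-coding transcripts held 83.8% and 79.3% of the summed TPM of the 31 genes, beside 75.8% and 77.0% over all nuclear protein-coding genes.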
